A study of Mus musculus with 2 samples.

Results

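Lpl and Spp1 were followed cell by cell in single-cell RNA-seq of sorted spinal cord microglia. The members are the rows of these 2 genes, picked by name out of 32285 genes counted in each of 2 libraries, and both genes had counts in both libraries. They were picked with their higher level in one library already known, so that difference is described here and not tested. One library came from control mice (Eif4ebp1 fl/fl, labelled WT) and the other from 4E-BP1–cKO mice (Eif4ebp1 fl/fl:TMEM119CreERT2, genotype labelled 4E-BP1 cKO). 4E-BP1, the product of Eif4ebp1, holds back cap-dependent translation and is a target of the kinase mTORC1. Both groups carry the floxed allele, the Tmem119 promoter drives the inducible Cre in the 4E-BP1–cKO mice only, and the study induced recombination with 4-hydroxytamoxifen on postnatal days 4 to 9. Per the study's general methods the mice were males aged 8 to 10 weeks. The sources used here do not say how many went into each library. Lumbar cord was digested with collagenase IV, cleared on Percoll and sorted for CD45-low, CD11b-high and CX3CR1-high cells before 10x 3′ capture.

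Lipoprotein lipase, the product of Lpl, is a secreted enzyme that splits the triglycerides of lipoproteins so that cells can take up the fatty acids. The enzyme is held on heparan sulphate chains at the cell surface and needs the cofactor ApoC2. Osteopontin, the product of Spp1, is a secreted phosphorylated protein that binds integrins and CD44. In the nervous system both genes are known from the microglia that gather along developing axon tracts and from those that take up myelin or debris after injury or in disease, while resting adult microglia hold little of either. In GRCm38, the assembly of the mm10 build to which the reads were aligned, RefSeq places Lpl on chromosome 8 from 68880555 to 68906932 and Spp1 on chromosome 5 from 104435111 to 104441053.

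A barcode was taken as a cell where over 300 genes were detected and mitochondrial transcripts made up less than 5%. The resulting 1147 control and 445 4E-BP1–cKO cells held 4803562 and 1734332 unique molecular identifiers (UMIs, counted RNA molecules), with medians of 3053 and 2776 per cell, and no barcode was shared between the libraries. At least 3 of 12 microglia markers were found in 96.9% of control and 95.7% of 4E-BP1–cKO cells. Eif4ebp1 had 95 and 51 UMIs, a log2 ratio of 0.55 in favour of the 4E-BP1–cKO library, which checks nothing if the 3′ end that was counted lies outside the deleted part. Tmem119, whose locus drives the Cre, had 2082 and 247 UMIs, a log2 ratio of -1.60. With 1 library per group the spread between animals is unknown, no test between the groups could be made, and every interval given covers counting error only.

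Both genes were rare in both libraries. Lpl had 136 UMIs among the control cells and 152 among the fewer 4E-BP1–cKO cells, which is 28.3 (95% Poisson interval 23.8 to 33.5) and 87.6 (74.3 to 103) counts per 1000000 UMIs (CPM). Spp1 had 135 and 102 UMIs, or 28.1 (23.6 to 33.3) and 58.8 (48.0 to 71.4) CPM. The ratio of the 4E-BP1–cKO to the control level was thus 3.10 (2.44 to 3.93) for Lpl, a log2 ratio of 1.60. For Spp1 it was 2.09 (1.60 to 2.73), a log2 ratio of 1.04. For background, 4.32% of the 11784 genes with at least 20 UMIs in all were over 1.5-fold higher in the 4E-BP1–cKO library and 11.3% were over 1.5-fold lower.

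The share of cells with a UMI was also higher in the 4E-BP1–cKO library, by less than the level was for Lpl. Lpl was detected in 80 control cells, 6.97% (exact binomial 95% interval 5.57 to 8.61), and in 50 4E-BP1–cKO cells, 11.2% (8.46 to 14.5). Spp1 was detected in 52 control cells, 4.53% (3.40 to 5.90), and in 37 4E-BP1–cKO cells, 8.31% (5.92 to 11.3). When every cell was thinned to 872 UMIs, leaving out 89 control and 70 4E-BP1–cKO cells that were shallower, the Lpl share was 1.80% (1.08 to 2.79) and 5.33% (3.29 to 8.12). The thinned Spp1 share was 1.04% (0.520 to 1.85) and 3.73% (2.06 to 6.18). As the exact mean over all possible draws the thinned shares were 1.94% and 3.78% for Lpl and 1.7% and 4.28% for Spp1, so a single draw moved with the few cells involved. Free RNA was not measured, as no class of cells that should lack the genes could be set apart. Among 12 control cells with at least 3 oligodendrocyte markers, whose median depth was 12278.5 UMIs, 3 held Lpl and none held Spp1. Of the 80 control Lpl cells 79 had at least 3 microglia markers, so these cells cannot serve as a class that lacks Lpl.

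The UMIs of both genes were gathered in few cells, and for Lpl this differed between the libraries. Most carriers held a single molecule: exactly 1 UMI was found in 56 of the 80 control and 31 of the 50 4E-BP1–cKO cells with Lpl, and in 32 of 52 and 20 of 37 cells with Spp1. At the other end, 1 control cell and 7 4E-BP1–cKO cells held 5 or more Lpl UMIs. In the control library the top Lpl cell held 22 UMIs and the next one 4. In the 4E-BP1–cKO library the top 3 held 33, 26 and 8. Cells with 5 or more UMIs thus accounted for 16.2% of the Lpl UMIs of the control library and 62.5% of those of the 4E-BP1–cKO library. For Spp1 they accounted for 55.6% in 8 control cells, led by cells of 17 and 16 UMIs, and 48.0% in 4 4E-BP1–cKO cells, led by cells of 22 and 14 UMIs.

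If UMIs had fallen on cells in proportion to depth, far more cells would have carried each gene. Lpl was in 0.647 of the expected number of control cells and 0.431 of the expected number of 4E-BP1–cKO cells. Spp1 was in 0.424 and 0.438 of the expected numbers. The median of the genes with a like total count was 0.89 and 0.883 for Lpl, and 97.1% of 4309 such genes in the control library and 99.7% of 2665 in the 4E-BP1–cKO library were spread over more of their expected cells than Lpl was. For Spp1 99.5% of 4289 and 99.7% of 3313 genes were spread wider.

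Leaving out the cells of 5 or more UMIs brought the 2 genes apart. Without them the Lpl ratio between the libraries was 1.43 (1.02 to 1.98), while the Spp1 ratio was 2.45 (1.66 to 3.61). Leaving out only the top cell of each library gave 2.90 (2.22 to 3.78) for Lpl and 1.88 (1.4 to 2.52) for Spp1. The larger part of the Lpl difference therefore lay in 7 4E-BP1–cKO cells, and the Spp1 difference was present among cells of 1 to 4 UMIs.

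**Figure D1:**
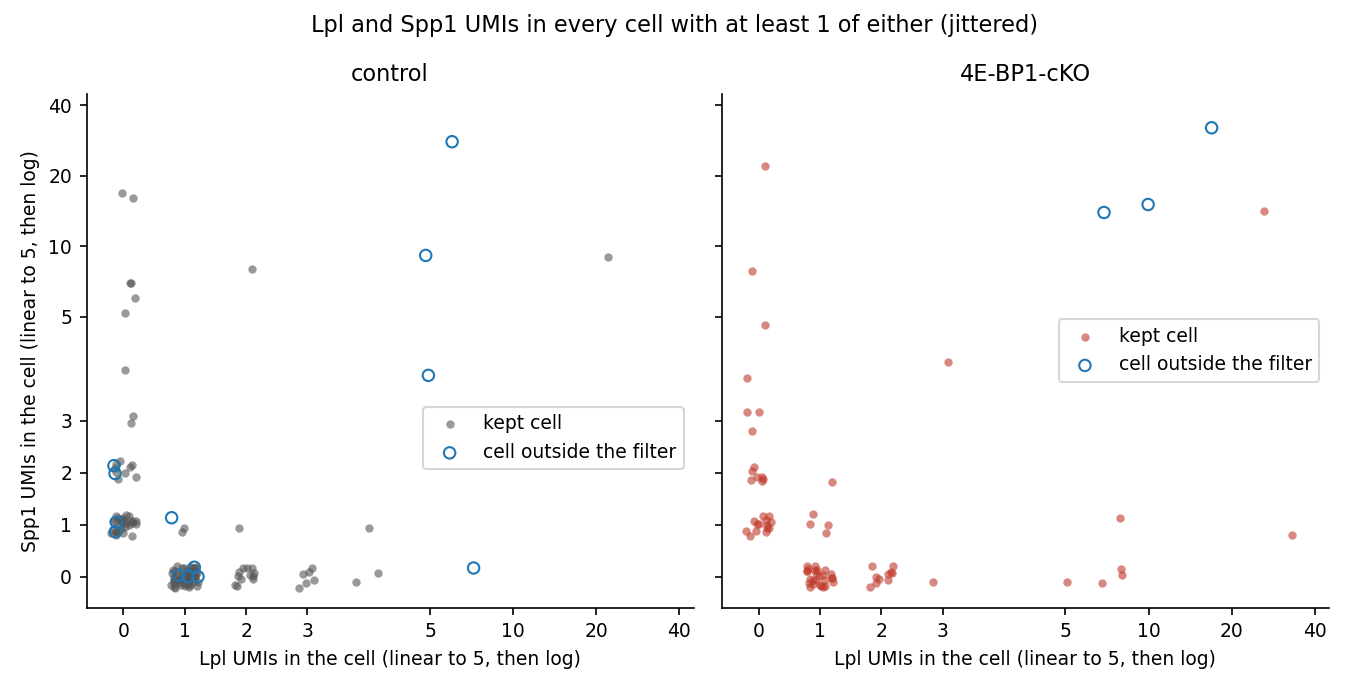
Lpl UMIs (x axis) and Spp1 UMIs (y axis) of every cell with at least 1 of either, control on the left and 4E-BP1–cKO on the right, jittered, with axes linear to 5 and then logarithmic, filled points for kept cells and open blue circles for barcodes outside the filter. Most points lie at 1 UMI of one gene and 0 of the other, and the kept 4E-BP1–cKO cells of 33 and 26 Lpl UMIs lie far to the right.

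The cells with the most Lpl were not the cells with the most Spp1, with 2 exceptions. The control cell of 22 Lpl UMIs also held 9 Spp1 UMIs among 18964 in all, and the 4E-BP1–cKO cell of 26 Lpl UMIs held 14 Spp1 UMIs among 10343. By contrast, the 4E-BP1–cKO cell of 33 Lpl UMIs held 1 Spp1 UMI, the other 5 cells of 5 or more Lpl UMIs held 1 or none, and the cells of 17, 16 and 22 Spp1 UMIs held no Lpl. All of the cells of 5 or more Lpl UMIs had at least 8 of the 12 microglia markers, and so did all but 1 of the cells of 5 or more Spp1 UMIs, the exception being a control cell of 1639 UMIs with 2. None of them had 3 or more markers of another cell type, and none was among the 4 control and 11 4E-BP1–cKO cells that the doublet caller Scrublet marked. The 7 4E-BP1–cKO cells of 5 or more Lpl UMIs were deep, with a median of 10279 UMIs beside 2776 in all cells of that library. The study's own doublet caller left fewer cells than Scrublet would and was not run here, so doublets among these cells were not excluded.

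Over all kept cells more held both genes than their shares predict, but the intervals include the prediction. Within 5 bins of depth, 6 control cells held both where 4.27 were expected, a ratio of 1.4 (0.516 to 3.06). In the 4E-BP1–cKO library 9 cells held both where 4.61 were expected, a ratio of 1.95 (0.893 to 3.71). The ratio was 1.51 in control and 0.934 in 4E-BP1–cKO cells with 3% or more of their UMIs from ribosomal protein genes, and 0.901 and 2.8 in cells with less. These ratios split the 6 and 9 cells with both genes and have no intervals. No change with ribosomal share can be read from them. At a thinned depth of 872 UMIs the mean over all possible draws was 0.816 cells against 0.349 expected in the control library and 2.15 against 0.607 in the 4E-BP1–cKO library. The cells with both were 7.5% of the control Lpl cells and 11.5% of the control Spp1 cells, and 18% and 24.3% in the 4E-BP1–cKO library. They held 49.3% of all Lpl UMIs of the 4E-BP1–cKO library, most of which came from the cells of 33 and 26 UMIs.

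Cells with Lpl were deep and rich in ribosomal protein transcripts, whereas cells with Spp1 were not clearly so. Cells with Lpl had a median of 5147.5 UMIs in the control library against 2973 in cells without it, and 7696 against 2490 in the 4E-BP1–cKO library. The median share of UMIs from 83 ribosomal protein genes was 5.41% against 2.02% and 5.90% against 3.01%. Cells with Spp1 had medians of 3887 against 2991 UMIs in the control library and 3028 against 2739.5 in the 4E-BP1–cKO library. Their median ribosomal share was 3.49% against 2.13% in the control library but 2.84% against 3.61% in the 4E-BP1–cKO library. Deeper cells detect more of every gene, so levels in CPM are the fairer comparison. Across 5 bins of depth the control Lpl level was flat, between 21.9 and 29.8 CPM. The 4E-BP1–cKO Lpl level was between 28.1 and 52.4 CPM in the first 4 bins and 133 CPM in the deepest, which held 112 of the 152 UMIs. The 4E-BP1–cKO Spp1 level ran the other way, at 153 CPM (10 UMIs) in the shallowest bin and 34.6 CPM in the deepest.

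Cells were then split by ribosomal share, a property of the cell that neither gene enters. Cells under 3%, of 3 to 8% and over 8% held Lpl at 20.2, 18.6 and 60.6 CPM in the control library. Among 4E-BP1–cKO cells they held it at 35.3, 91.5 and 145 CPM. The ratio between libraries was 1.75 (0.962 to 3.08), 4.93 (3.21 to 7.67) and 2.40 (1.68 to 3.43) in the 3 strata, and 2.73 in the middle one without the top cell of each library. Lpl was thus highest in the ribosome-rich cells of both libraries, and the interval of its ratio between libraries lay above 1 in the upper 2 strata. These intervals take UMIs as independent, yet 33 of the 64 and 26 of the 68 4E-BP1–cKO Lpl UMIs there lay in 1 cell each. The ratios describe a difference known beforehand and are not tests of it. Spp1 stood at 17.6, 28.6 and 46.2 CPM in the same strata of the control library. Among 4E-BP1–cKO cells it stood at 74.2, 60.0 and 38.4 CPM, and at 8.73 CPM in the last stratum without its top cell. Its ratio between libraries was 4.22 (2.61 to 6.87), 2.10 (1.37 to 3.20) and 0.833 (0.456 to 1.46), and 0.292 in the last one without the top cells. The Spp1 difference was therefore largest in the ribosome-poor cells, where no single cell carried more than 5 of its UMIs. In the ribosome-rich cells the interval of the Spp1 ratio included 1. The median ribosomal share of all cells was 2.19% in the control and 3.50% in the 4E-BP1–cKO library, and its part in these differences was not tested beyond these strata.

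**Figure D2:**
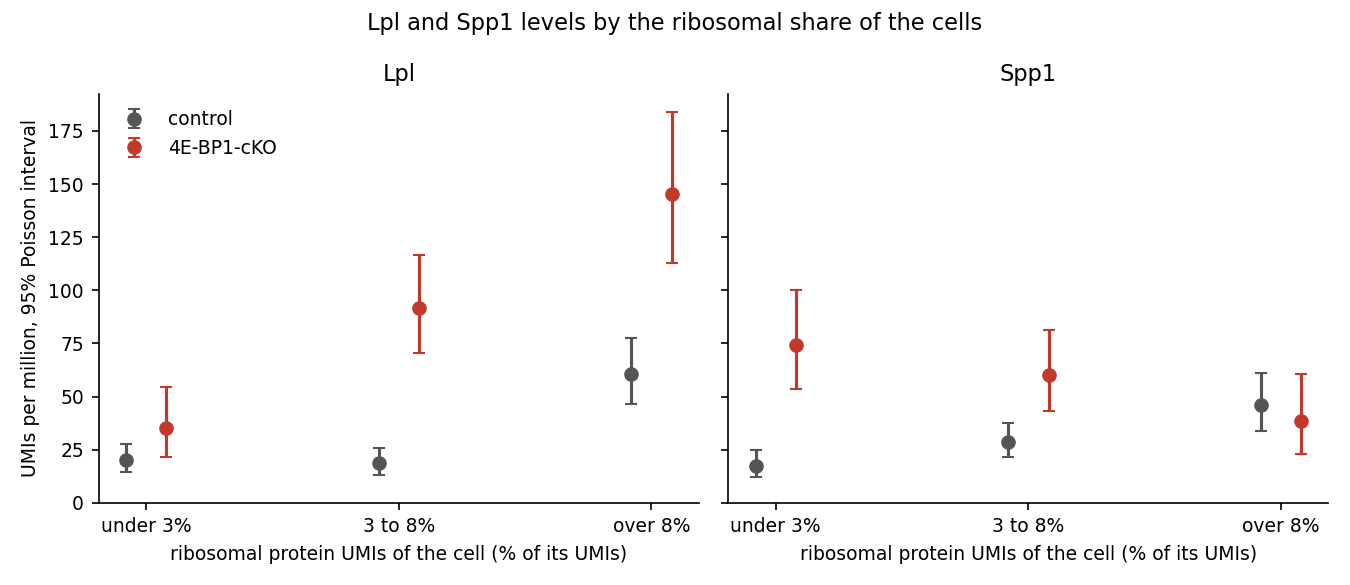
Level of Lpl (left) and Spp1 (right) in CPM, with 95% Poisson intervals, in cells with under 3%, 3 to 8% and over 8% ribosomal protein UMIs, control in grey and 4E-BP1–cKO in red. Lpl is highest over 8%, at 60.6 and 145 CPM, while Spp1 is highest there in the control library (46.2 CPM) and lowest there in the 4E-BP1–cKO library (38.4 CPM).

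Clustering the cells with both genes taken out beforehand gave 9 clusters, numbered here by size and given no cell type name. Lpl was highest in clusters 7 and 9, clearly so only in the 4E-BP1–cKO library. In the control library the interval of cluster 7 overlapped those of clusters 4 and 5, at 31.6 and 33.7 CPM, and cluster 9 rested largely on 1 cell. Cluster 7, 96 control and 52 4E-BP1–cKO cells led by Cxcl2, Mt1, Marcksl1, Gadd45b and Mir155hg, held 36 control and 99 4E-BP1–cKO Lpl UMIs. These were 39.6 (27.8 to 54.9) and 241 (195 to 293) CPM, a ratio of 6.07 (4.11 to 9.15) that was 4.59 without the top cell of each library. The cluster held 26.5% of the control Lpl UMIs and 65.1% of those of the 4E-BP1–cKO library, with 5 of its 7 cells of 5 or more UMIs. Cluster 9, 28 control and 17 4E-BP1–cKO cells led by Apoe and by ribosomal protein genes, held Lpl at 156 (103 to 228) and 174 (99.3 to 282) CPM, a ratio of 1.11 (0.559 to 2.14). Of its 27 control UMIs, 22 came from 1 cell, and without the top cell of each library the ratio was 2.94. Outside cluster 7 the Lpl ratio between libraries was 1.56 (1.10 to 2.20), and outside both clusters it was 1.53 (1.0 to 2.31).

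Spp1 was placed differently. In clusters 7 and 9 it had 6 and 9 UMIs in the control library, the latter all in 1 cell, and 18 and 0 in the 4E-BP1–cKO library. Its highest 4E-BP1–cKO level was in cluster 3, a cluster led by unnamed gene models such as Gm35188, at 160 CPM against 28.4 in the control library, a ratio of 5.62 (2.64 to 12.1). In cluster 5, the shallowest, with a median of 763 and 776.5 UMIs per cell and with Flt1 and Cldn5 of vessels among its leading genes, it stood at 118 against 37.5 CPM, a ratio of 3.14 (1.27 to 8.0). Cluster 6, led by the resting-state genes Pde3b, Gpr34, P2ry12 and Cx3cr1, held Spp1 at 36.4 and 39.5 CPM, a ratio of 1.09 (0.430 to 2.42) with all 8 4E-BP1–cKO UMIs in 1 cell. It also held the lowest control Lpl level of the 9 clusters, 7.28 CPM. Cluster 1, led by the early-response genes Fos and Ccl3 and by heat shock genes, held the most Spp1 UMIs, 47 and 28, which included the cells of 17 and 22 UMIs, and its ratio was 1.31 (0.792 to 2.14), or 0.444 without the top cells. Outside clusters 7 and 9 the Spp1 ratio was 2.12 (1.58 to 2.82), close to that of all cells.

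**Figure D3:**
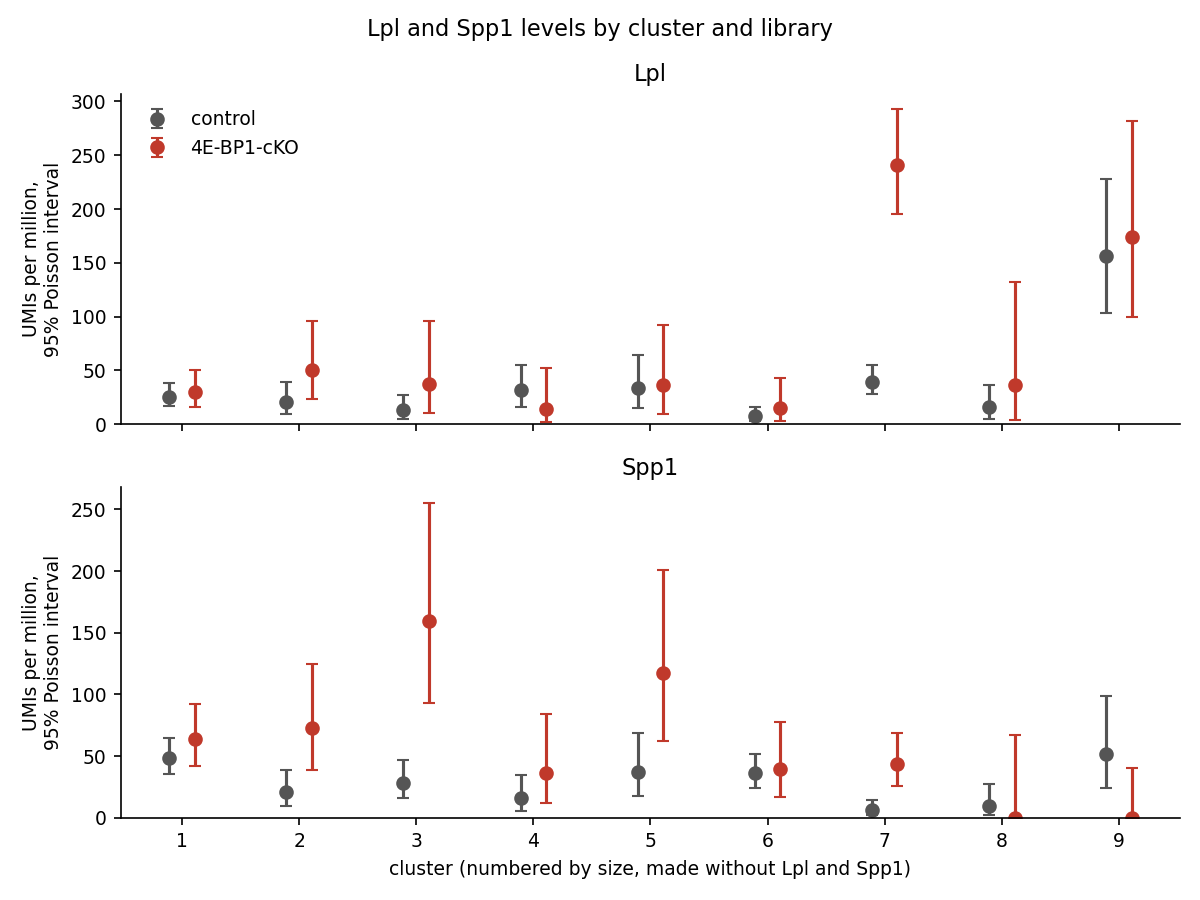
Level of Lpl (top) and Spp1 (bottom) in CPM, with 95% Poisson intervals, in each of 9 clusters made without these genes, control in grey and 4E-BP1–cKO in red. Lpl stands out in cluster 7 of the 4E-BP1–cKO library (241 CPM) and in cluster 9 of both. In control cluster 9, 22 of the 27 Lpl UMIs lay in 1 cell. Spp1 is highest in 4E-BP1–cKO clusters 3 and 5.

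Other genes in the carriers were compared with the remaining cells of the same library, in CPM. For background, of 9367 genes with at least 50 UMIs, 0.993% were over 1.5-fold higher in Lpl cells of both libraries and 2.54% lower, and for Spp1 cells the shares were 0.95% and 2.5%. The 8 genes with the largest mean log2 ratio in Lpl cells were Apoe, Airn, Lgals3, Nes, Lilrb4a, Igf2r, Rab7b and Vim. Apoe, which encodes the main lipid-carrying apolipoprotein of the brain, stood at 2765 CPM in control Lpl cells against 656 in the other control cells. In the 4E-BP1–cKO library it stood at 3718 against 882 CPM, so the ratio pooled over all ribosomal shares was 4.21 and 4.22 in the 2 libraries. A single carrier held 222 of the 1430 Apoe UMIs of control Lpl cells, and another 337 of the 1463 of 4E-BP1–cKO Lpl cells. Without these carriers the log2 ratio was 1.86 and 1.72. Among 4E-BP1–cKO cells under 3% ribosomal share Apoe stood at 663 CPM with Lpl against 544 without it, under 1.5-fold. It therefore missed the call of over 1.5-fold in both libraries there, whatever its control ratio. The like pooled ratios thus do not show a like ratio in every stratum. The Apoe level was higher with more Lpl in the 4E-BP1–cKO library. It went from 882 CPM in cells without Lpl to 2084 in cells with 1 Lpl UMI and 6423 in cells with more. In the control library it was 656, 2986 and 2372 CPM. By ribosomal share, Apoe stood at 663, 996 and 11025 CPM in 4E-BP1–cKO Lpl cells under 3%, of 3 to 8% and over 8%. In 4E-BP1–cKO cells without Lpl it stood at 544, 486 and 1896 CPM. The relation of Apoe to the number of Lpl UMIs was not tested within these strata. The cells of 33 and 26 Lpl UMIs stood outside this relation, with 2 and 4 Apoe UMIs, and the other 5 cells of 5 or more Lpl UMIs held 20 to 175.

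Lgals3, which encodes the lectin galectin-3, stood at 38.7 against 3.97 CPM in control Lpl cells and 58.5 against 12.7 CPM in 4E-BP1–cKO Lpl cells. It rested on 20 and 23 UMIs in 6 and 7 Lpl cells. Vim, the intermediate filament vimentin, stood at 85.1 against 23.1 and 50.8 against 15.7 CPM. Nes, the intermediate filament nestin, stood at 29.0 against 4.43 and 35.6 against 2.98 CPM. Airn is an antisense RNA that overlaps Igf2r on chromosome 17 of GRCm38. The sources used here do not say whether counting used strand, and whether the reads of Airn and Igf2r were kept apart was not tested. Without the Lpl cell that held the most UMIs of the gene in question, 7 of the 8 genes, all but Igf2r, stayed over 1.5-fold higher in both libraries. By ribosomal share, 8 of 8 were over 1.5-fold higher in both libraries among cells over 8%, 7 of 8 among cells of 3 to 8%, and 0 of 8 among cells under 3%. A gene had to pass in both libraries to be counted. The 8 genes were picked for high ratios in these same cells, so these counts describe them and are not independent support. The share of all genes within each stratum was not counted.

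The corresponding list for Spp1 cells was Lpl, Hist1h2bc, Alcam, Fam20c, Med11, Samd4, Rab7b and Cpq, and only Rab7b was in both lists. Lpl itself stood at 116 against 23.0 CPM in control Spp1 cells and at 437 against 49.3 CPM in 4E-BP1–cKO Spp1 cells. Of the Lpl UMIs in Spp1 cells, 68.8% of the control and 44% of the 4E-BP1–cKO ones came from 1 cell. Alcam, an adhesion molecule, stood at 267 against 171 and 595 against 182 CPM. Without the Spp1 cell that held the most UMIs of the gene in question, 0 of the 8 genes stayed over 1.5-fold higher in both libraries. Apoe did not mark the Spp1 cells, at 1362 against 854 CPM in the control and 1849 against 1490 CPM in the 4E-BP1–cKO library.

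**Figure D4:**
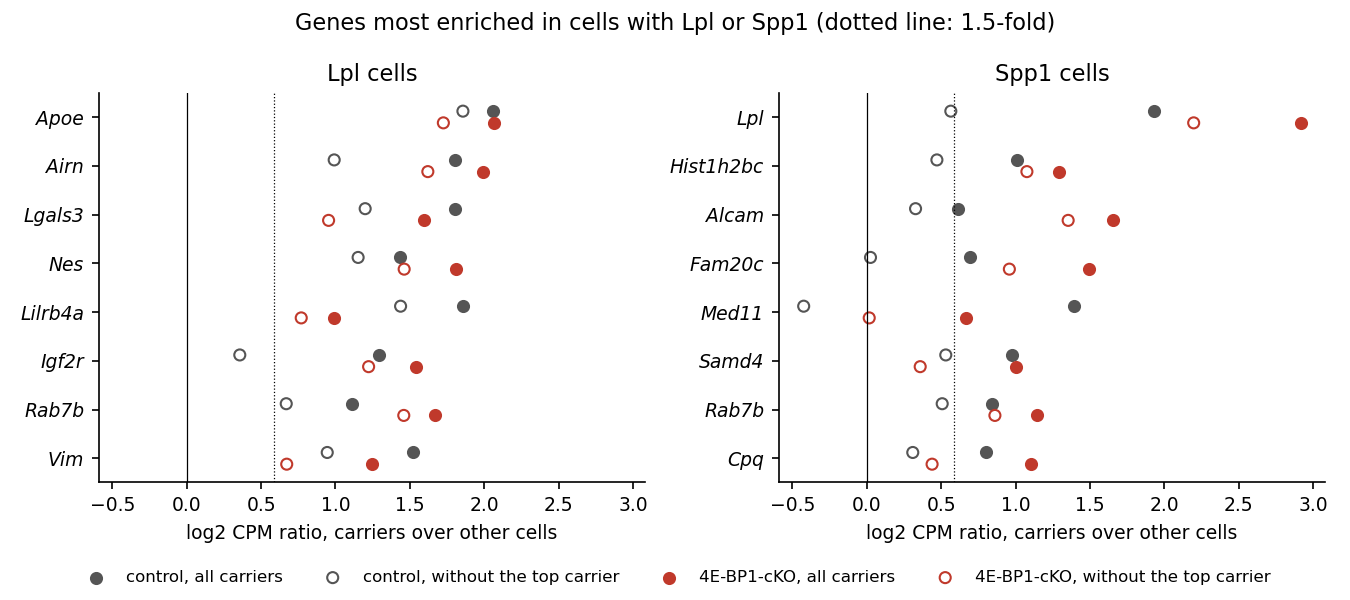
Log2 ratio of the CPM in cells with Lpl (left) or Spp1 (right) to that in the other cells of the library, with a pseudocount of 10 CPM, for the 8 genes with the largest mean over both libraries, control in grey and 4E-BP1–cKO in red, filled for all carriers and open without the carrier that held the most UMIs of the gene. Apoe leads for Lpl at 2.06 in each library, and none of the 8 Spp1 genes has both open circles right of the dotted line at 1.5-fold.

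Genes that act on lipoprotein lipase were called in carriers at the same 1.5-fold threshold. Because 1 cell can carry such a call, each was repeated without the carrier holding the most UMIs of the gene. Of 13 measured activators, inhibitors and partners, Apoe and Sdc4 were over 1.5-fold higher in Lpl cells of both libraries and none was lower. Over all genes with at least 50 UMIs 0.993% were higher and 2.54% lower. Sdc4, a heparan sulphate carrier of the cell surface, stood at 205 against 80.5 CPM in the control and 305 against 121 CPM in the 4E-BP1–cKO library. Both genes stayed over 1.5-fold higher without that carrier. Between the libraries 3 of 14 genes of the list were over 1.5-fold higher in the 4E-BP1–cKO library and 0 lower. Over all genes tested between the libraries 4.32% were higher there and 11.3% lower. Apoe and Sdc4 each had a log2 ratio of 0.79, and 0.67 and 0.73 without the top cell of each library. The last was Apoc1, an apolipoprotein that inhibits the lipase, with 8 and 27 UMIs. Of the 27 UMIs 26 lay in 1 cell, and without the top cells its log2 ratio was -0.51.

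Among 10 lipoprotein receptors and lipid uptake genes, Olr1, a receptor for oxidised lipoproteins, was the one over 1.5-fold higher in Lpl cells of both libraries. Over all genes with at least 50 UMIs, 0.993% were higher and 2.54% lower in Lpl cells, and 0.95% and 2.5% in Spp1 cells. Olr1 stood at 83.1 against 16.3 CPM in the control and 173 against 43.3 CPM in the 4E-BP1–cKO library. Of its 68 UMIs in 4E-BP1–cKO Lpl cells 44 lay in 1 cell, without which the log2 ratio there was 0.44, under 1.5-fold. It was also the one gene of 14 in that list over 1.5-fold higher in the 4E-BP1–cKO library. Its 113 and 126 UMIs gave a log2 ratio of 1.59, or 1.18 without the top cell of each library. Over all genes tested between the libraries 4.32% were higher in the 4E-BP1–cKO library and 11.3% lower. Of 11 storage and efflux genes, Plin2, a coat protein of lipid droplets, was the one higher in Lpl cells, at 77.3 against 38.0 and 55.9 against 29.1 CPM. Without its top carrier its log2 ratio was 0.43 and 0.54, under 1.5-fold in both libraries. None of the storage or uptake genes passed the threshold in Spp1 cells. None of 7 lipid-sensing nuclear receptors and partners did in cells with either gene, though Mlxipl fell just short in Lpl cells, at log2 ratios of -0.58 and -0.61. Between the libraries Nr1h2 and Rxrb of that list were higher in the 4E-BP1–cKO library, at log2 ratios of 0.96 and 0.63. Mlxipl was lower there at -0.65, as was Dgat2 of the storage list at -0.80. All of these stayed past 1.5-fold without the top cell of each library.

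The genes known to act with osteopontin were followed in the same way. Over all genes with at least 50 UMIs, 0.993% were higher and 2.54% lower in Lpl cells, and 0.95% and 2.5% in Spp1 cells. Of 8 measured receptors, Itga4, an integrin subunit, was over 1.5-fold higher in Spp1 cells of both libraries, at 18.1 against 7.73 and 17.5 against 4.48 CPM. This rested on 5 UMIs in 3 control cells and 3 UMIs in 1 4E-BP1–cKO cell, and was lost without the top carrier. Cd44 was higher in Lpl cells instead, at 130 against 38.3 and 55.9 against 31.3 CPM, with a log2 ratio in the 4E-BP1–cKO library of 0.39 without the top carrier. None of the 8 receptors passed the threshold between the libraries, beside 4.32% of all genes tested that were higher and 11.3% lower. Of 5 measured modifying enzymes, Fam20c, the secretory pathway kinase that phosphorylates osteopontin, was higher in Spp1 cells at 36.1 against 18.6 and 75.8 against 20.5 CPM, with 5 of its 10 UMIs in control Spp1 cells from 1 cell. It was higher in Lpl cells too, at 50.3 against 15.9 and 50.8 against 18.6 CPM, and stayed so without the top carrier. Plaur, the urokinase receptor, stood at 118 against 64.9 and 183 against 68.6 CPM in Lpl cells, with a control log2 ratio of 0.57 without the top carrier, just under 1.5-fold. The other genes of the Spp1 neighbourhood, Ibsp, Dmp1, Dspp and Mepe, had 0 UMIs in both libraries.

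None of 15 homeostatic genes was past 1.5-fold in both libraries, in either direction, in cells with Lpl or with Spp1. Their median log2 ratio in Lpl cells was -0.04 in the control and -0.49 in the 4E-BP1–cKO library, beside -0.05 and -0.07 over all genes, so they stood lower in the 4E-BP1–cKO carriers without any of them being past the threshold in both libraries. The 12 microglia markers summed to 9487 CPM in 4E-BP1–cKO Lpl cells beside 11654 CPM in all cells of that library, and to 11961 beside 11921 CPM in the control library. None of 20 genes known to respond to tissue dissociation passed the threshold in carriers of either gene. Between the libraries 5 were higher in the 4E-BP1–cKO library and 3 lower, beside 4.32% and 11.3% of all genes tested. Ier2, Ccl3, Nfkbia, Ccl4 and Egr1 were higher, at log2 ratios of 1.05, 0.73, 0.72, 0.72 and 0.63. Hspa1b, Hsp90aa1 and Hspa1a were lower, at -1.37, -0.64 and -0.63. All of these stayed past the threshold without the top cell of each library. Their bearing on the other ratios between libraries was not tested. None of 21 measured regulators, Mitf, Tfeb and Tfe3 included, passed the threshold in carriers or between libraries. Of 11 mTORC1 and cap-binding genes, 0 passed it in Lpl cells. Tsc2, an mTORC1 inhibitor, was higher in Spp1 cells at 25.3 against 7.95 and 23.3 against 12.2 CPM, on 7 and 4 UMIs. Without the top carrier Tsc2 was not over the threshold. Over all genes with at least 50 UMIs 0.993% were higher in Lpl cells of both libraries and 0.95% in Spp1 cells.

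The gene lists that the study used for microglial states hold Lpl and Spp1 themselves, and it applied them to these same samples, so the following counts are not independent evidence. Of 55 measured genes of the disease-associated list, 8 were over 1.5-fold higher in Lpl cells of both libraries and 3 in Spp1 cells. Over all 9367 genes with at least 50 UMIs the shares were 0.993% and 0.95%. The 8 were Apoe, Axl, Capg, Cd52, Cd63, Fam20c, Fxyd5 and Mt1, of which Axl, Cd52 and Fxyd5 fell under 1.5-fold in one library without the top carrier. None of the 3 in Spp1 cells, Capg, Fam20c and Fxyd5, stayed over it. The lysosomal membrane gene Cd63 stood at 363 against 131 and 262 against 133 CPM. The receptor kinase gene Axl stood at 69.6 against 39.2 and 89.0 against 43.3 CPM. Of 124 genes of the injury-responsive list 4 were higher in Lpl cells and 0 in Spp1 cells. The 4 were Apoe, Axl, Cd52 and Cd63, all of them also among the 8 above. Of 11 genes of the CD11c list 4 were higher in Lpl cells, Apoe, Axl, Fam20c and Anxa5, and 1, Fam20c, in Spp1 cells. Only Anxa5 was not among the 8 above, and its 4E-BP1–cKO log2 ratio was 0.54 without the top carrier, under 1.5-fold. The counts of the 3 lists thus rest largely on the same genes. None of the 3 lists had a gene lower in carriers of both libraries.

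Barcodes that the filter removed held a large part of both genes. They numbered 69 in the control and 29 in the 4E-BP1–cKO library and held 2.25% and 2.01% of the UMIs, yet 17.1% and 18.3% of the Lpl UMIs and 26.2% and 37.4% of the Spp1 UMIs. Lpl stood at 253 (168 to 365) CPM in the control and 955 (661 to 1335) CPM in the 4E-BP1–cKO barcodes. Spp1 stood at 433 (320 to 575) and 1714 (1311 to 2201) CPM. In the 4E-BP1–cKO library all of these UMIs lay in 3 cells of the 11 that had 5 to 10% mitochondrial counts, and each of the 3 held both genes.

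The first of these cells held 17 Lpl and 32 Spp1 UMIs among 3126, at 9.28% mitochondrial counts. The second held 10 and 15 among 2054, at 5.84%, and the last one 7 and 14 among 4982, at 5.58%. They had 3, 5 and 7 of the 12 microglia markers and no other cell type with 3 markers. Their Apoe counts were 64, 29 and 74 UMIs and their Olr1 counts 10, 4 and 11, while P2ry12, a receptor of resting microglia, had 0, 0 and 1. In these 3 cells Lpl, Spp1, Apoe and Olr1 stood high together. In the kept set the cell of 26 Lpl and 14 Spp1 UMIs had 4 Apoe UMIs.

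In the control library 13 removed barcodes carried one gene or the other, and 4 carried both. One held 6 Lpl and 28 Spp1 UMIs among 1390, at 33.6% mitochondrial counts, and one held 5 and 9 among 806, at 53.2%. Another, at 8.26%, held 5 and 4 among 5918 with 133 Apoe and 9 Cd44 UMIs and 9 microglia markers. The fourth held 1 of each. A barcode with 7.89% mitochondrial counts held 7 Lpl and 0 Spp1 UMIs with 11 microglia markers and at least 3 markers of proliferation. A high mitochondrial share is common in damaged cells, and whether these barcodes were intact cells was not tested.

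**Figure D5:**
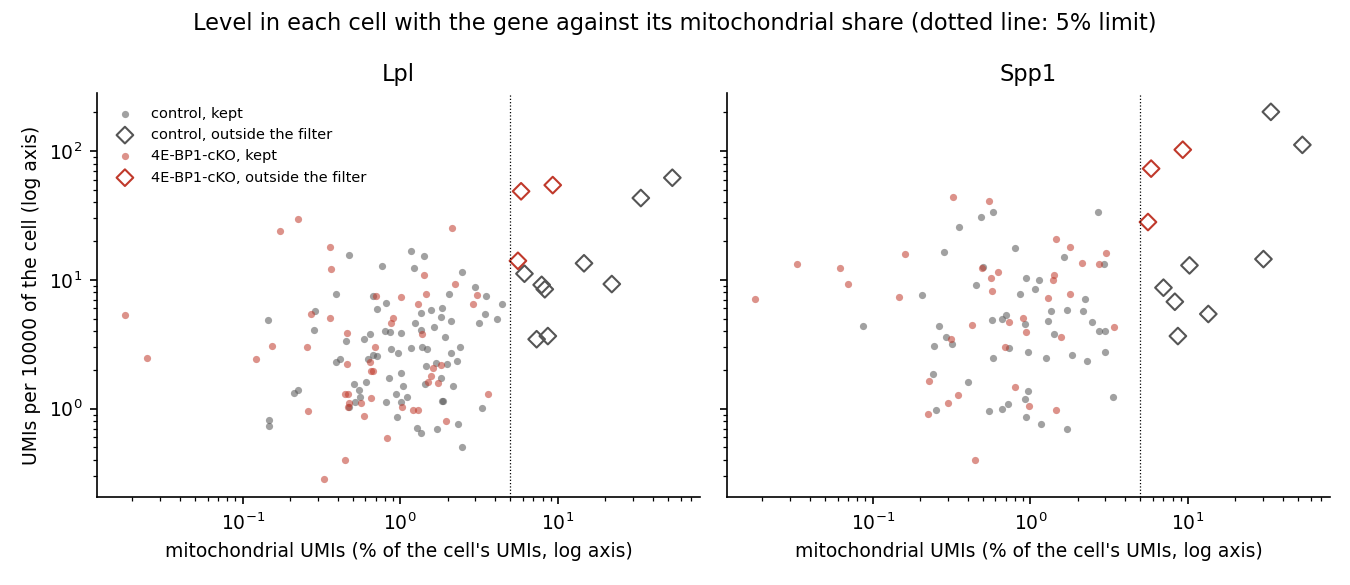
Level of Lpl (left) and Spp1 (right) in every cell that carries the gene, relative to all UMIs of the cell (y axis, log), against its mitochondrial share in percent (x axis, log). Diamonds are barcodes outside the filter, all of them right of the dotted 5% line, and the 3 4E-BP1–cKO ones hold 7 to 17 Lpl and 14 to 32 Spp1 UMIs.

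Markers of other cell types stood in the carriers near their level in all cells of the library for some lists and not for others. The oligodendrocyte list stood at 46.9 beside 88.3 CPM in control Spp1 cells and at 73.7 beside 141 CPM in 4E-BP1–cKO Lpl cells. The oligodendrocyte precursor list stood at 25.3 beside 4.37 CPM in control Spp1 cells, on 7 UMIs. The 6 Schwann cell markers summed to 220 UMIs in 57 of the 80 control Lpl cells, at 425 CPM beside 407 CPM in all control cells. In 4E-BP1–cKO Lpl cells they summed to 192 UMIs in 40 of 50 cells, at 488 beside 522 CPM. The B cell, oligodendrocyte and endothelial lists summed to 75, 54 and 50 UMIs in control Lpl cells, at 145, 104 and 96.6 CPM beside 125, 88.3 and 89.1 CPM in all control cells. The erythrocyte list stood higher in Spp1 cells, at 57.8 beside 24.4 CPM in the control and 23.3 beside 6.92 CPM in the 4E-BP1–cKO library, on 16 and 4 UMIs. The part of these markers in the results was not tested.

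Few carriers met the rule of 3 markers of another type. Of the cells with at least 3 Schwann cell markers, 8 in the control and 4 in the 4E-BP1–cKO library, 2 in each held Lpl, with 5 and 3 UMIs, and none held Spp1. The 12 control cells with at least 3 oligodendrocyte markers held 4 Lpl UMIs, and the 4 with at least 3 endothelial markers held 1. The cells with at least 3 markers of border-associated macrophages, which are known to express Spp1 in some settings, numbered 2 and 1 and held neither gene. Of 3 control cells with at least 3 erythrocyte markers 1 held 3 Spp1 UMIs, and of 2 with at least 3 proliferation markers 1 held 2. In the 4E-BP1–cKO Spp1 cells as a whole the 8 macrophage markers summed to 6 UMIs in 3 of 37 cells, at 35.0 CPM beside 8.65 CPM in all cells of that library, and 5 of the 8 were at 0. In the control Spp1 cells they summed to 1 UMI, and in Lpl cells to 3 and 1 UMIs. Neutrophil, monocyte and T cell markers summed to at most 4 UMIs per list in the carriers of either gene in either library.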

How the data were processed

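The deposited matrices hold UMI counts per gene and barcode, which the authors made with Cell Ranger 8.0.1 on mm10, and no normalization was applied to them. A barcode entered if over 300 genes were detected and less than 5% of its UMIs were mitochondrial, and doublets were not removed. The study also removed doublets with scDblFinder, which left it fewer cells, and Scrublet was tried here as an alternative. Lpl, Spp1 and the gene lists were chosen with earlier results of these data known.

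Counts were summed over the cells of a library and divided by their total (CPM, counts per 1000000 UMIs). Intervals are exact: Poisson for levels, conditional Poisson for ratios and Clopper-Pearson for shares. Thinning drew UMIs without replacement. Genes named for carriers are the 8 with the largest mean log2 ratio (pseudocount 10 CPM), among genes with at least 50 UMIs, at least 5 carriers with a UMI and over 1.5-fold in each library. Genes of the lists were given values from 20 UMIs. Clusters used SCTransform and RPCA integration, 20 components and resolution 1.4 in Seurat, without Lpl and Spp1. The comparison of carriers with other cells, the cells expected by depth, the thinning and the ratio intervals were tested on simulated counts. The co-detection step was not. Of the barcodes outside the filter, 65 control and 25 4E-BP1–cKO ones failed on mitochondrial share.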

Additional observations from a re-analysis of the deposited data

Results flagged for a closer look

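Barcodes that the filter set aside held Lpl at 955 CPM and Spp1 at 1714 CPM in the 4E-BP1–cKO library, above the 253 and 433 CPM of the corresponding control barcodes. The 4E-BP1–cKO values rest on 3 cells. Spp1 also went in opposite directions with ribosomal share: its level in cells over 8% relative to cells under 3% had a log2 ratio of 1.34 for the control cells and -0.93 for the 4E-BP1–cKO cells. The difference between these ratios was not tested.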

How the results depend on the processing

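Over 13 alternatives for each gene, the log2 ratio between libraries was above 0 in all and lay between 0.50 and 1.81 for Lpl and between 0.66 and 1.64 for Spp1. Of 100 alternative values of 16 results, 78 stayed within the counting interval of the value reported, or within 1.5 times for counts of genes, and 22 moved further. The intervals of the co-detection ratio are wide and include ratios under 1. The Lpl log2 ratio moved to 1.11 when thinned to 1500 UMIs, to 1.02 as a mean of per-cell CPM and to 0.50 without cells of 5 or more UMIs, an alternative chosen after seeing the data. The Spp1 log2 ratio moved to 1.64 with a mitochondrial limit of 10%, which lets in the 3 cells described, to 1.59 when thinned to 872 UMIs and to 0.66 when thinned to 1500. Thinned to 872 UMIs, thinned to 1500, and with 2 or more UMIs required, the Lpl share was 1.80%, 3.89% and 2.09% in control and 5.33%, 6.58% and 4.27% in 4E-BP1–cKO cells. The Spp1 share was 1.04%, 2.48% and 1.74% in control and 3.73%, 3.76% and 3.82% in 4E-BP1–cKO cells. By construction fewer UMIs give lower shares. Cells with both genes stood at 5.06 times the expected number in the control library when thinned to 872 UMIs, from 1 cell. The Lpl level of the highest cluster was 114 CPM at resolution 0.8, beside 162 CPM at resolution 1.4. Thinned to 872 UMIs, 1 of the 8 genes named for Lpl cells and 0 of the 8 for Spp1 cells were among the first 8 again, and the cause was not tested. No paired analysis was possible because each group is 1 library. Depth limits what is seen: with a single UMI in most carriers, cells without a UMI cannot be called negative.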
